A study of Homo sapiens with 6 samples.

Results

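The genes described here make melanin or build and move the melanosome, the organelle in which pigment cells store it. They were taken as a fixed list of 32 gene symbols, and all 32 were found among the 25548 gene rows of the deposited table. The cells were A375, an established human melanoma cell line, grown in serum-containing medium. The 3 treated samples received the RNA polymerase I inhibitor BMH-21 at 1 µM for 6 h. The 3 controls were given DMSO, the solvent, under titles that read 0 h, so BMH-21 cannot be told apart from 6 h of further culture, and "with BMH-21" covers both. Gene expression was measured by RNA sequencing and deposited in FPKM, a level per length of transcript and per size of library.

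The table held 1 FPKM estimate per group between a lower and an upper value, here called bounds, although the columns are titled as replicates. In all 28 members with 3 values above 0 in BMH-21 and all 27 in control, the first value was the midpoint of the others. The libraries' own values and their spread were therefore not analysed here, the depth is unknown, and no difference below carries a p-value. Intervals are called separate where the bounds of the groups do not meet, which describes the table and is no test. Overlap does not show equal levels.

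Melanin is made from tyrosine by tyrosinase and its relatives inside the melanosome, on a scaffold of amyloid fibrils. Adaptor and tethering complexes sort these proteins to the young organelle, Rab GTPases deliver them, and a myosin motor carries the ripe melanosome along actin. Much of the pigment-specific set is switched on by the transcription factor MITF, whereas the sorting machinery is shared with lysosomes of other cells.

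The list split by level before it split by treatment. Of the 32 members, 19 reached 1 FPKM in at least 1 group and 13 stayed under 1 FPKM in both. All 10 sorting-complex genes were among the 19, and none of the 5 pigment enzyme and matrix genes was. With BMH-21, S100B and EDNRB were lower and RAB38 was higher with separate intervals, and the other 16 measured members overlapped. Separate intervals on the lower side thus held for 2 of 19 measured members (10.5%), against 3.14% of the 12738 genes at 1 FPKM or more with short RNA rows left out. On the higher side it was 1 of 19 (5.26%), against 3.58%. These are counts of 1 and 2 genes. Among the 19 measured members, a ratio of estimates of at least 1.5 picked out the same 3. It held for 2 lower (4.83% of all genes) and 1 higher (5.01% of all genes). Under 1 FPKM, TYRP1, MLPH and TRPM1 passed it as lower and MLANA, OCA2 and SLC24A5 as higher, all with overlapping intervals. The shares above cover genes at 1 FPKM or more and are no reference for these low members. TRPM1 passed only because it was listed at 0 with BMH-21.

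**Figure D1:**
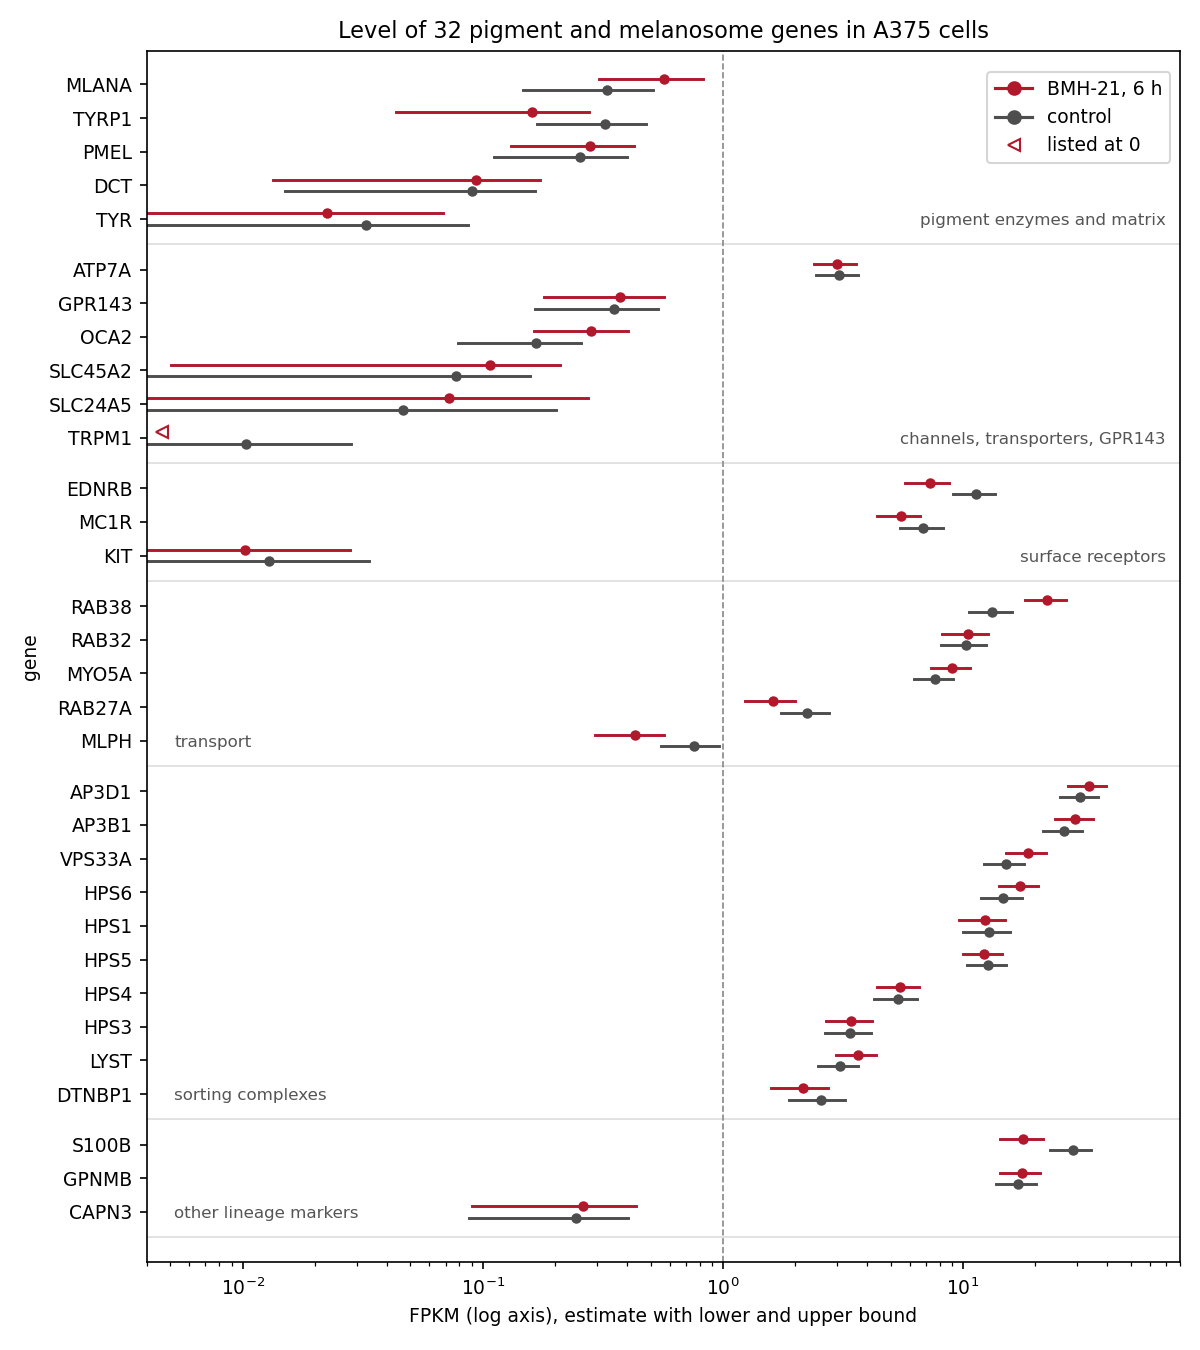
FPKM estimate (point) with the authors' lower and upper bound (line) for the 32 members, grouped by role, in BMH-21 (red, upper of each pair) and control (grey), on a log axis. Lines that reach the left edge have a lower bound of 0, the open triangle is a gene listed at 0, and the dashed line marks 1 FPKM. The pigment enzyme and matrix genes lie left of that line and every sorting-complex gene lies right of it.

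The pigment enzyme and matrix genes were close to the lower limit of the table. TYR, the enzyme that starts melanin synthesis, was at 0.0224 FPKM with BMH-21 (bounds 0 to 0.0681) against 0.0327 FPKM in control (bounds 0 to 0.0872). A lower bound of 0 in both groups means that the authors' interval for TYR included no expression. TYRP1, which stabilises tyrosinase and acts late in the pathway, was at 0.160 FPKM with BMH-21 (bounds 0.0434 to 0.276) against 0.323 FPKM in control (bounds 0.168 to 0.479). DCT, which converts dopachrome, was at 0.0936 FPKM with BMH-21 against 0.0899 FPKM in control. PMEL, the protein of the melanosome fibrils, was at 0.280 FPKM with BMH-21 against 0.255 FPKM in control. MLANA, a melanosome membrane protein that PMEL needs for its processing, was the highest of the 5, at 0.567 FPKM with BMH-21 (bounds 0.305 to 0.829) against 0.329 FPKM in control (bounds 0.147 to 0.512). All 5 intervals overlapped, and together the 5 genes summed to 1.12 FPKM with BMH-21 and 1.03 FPKM in control.

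The label gives the cells as melanoma from skin, and the markers that define pigment production were absent or nearly so. MITF was present and lower with BMH-21 with narrowly separate intervals, at 5.31 FPKM with BMH-21 against 8.06 FPKM in control, a log2 difference of -0.52 ± 0.37. The lineage factor PAX3 was at 8.19 FPKM with BMH-21 against 7.02 FPKM in control, with overlapping intervals. SOX10, planned with MITF and PAX3 as a check of the cell type label, is not reported here. Markers of other cells were looked at in lists of 6. Endothelial markers had no member at 1 FPKM and summed to 0.982 FPKM with BMH-21 against 1.07 FPKM in control. Keratinocyte markers summed to 12.9 FPKM with BMH-21 against 12.3 FPKM in control, with 2 of 6 at 1 FPKM, KRT10 (10.6 FPKM with BMH-21 and 10.4 FPKM in control) and KRT14 (2.16 FPKM with BMH-21 and 1.64 FPKM in control). KRT5 was at 0.0502 FPKM with BMH-21 against 0.0623 FPKM in control, KRTDAP was listed at 0 in both, and KRT1 was listed at 0 with BMH-21. Leukocyte markers had 2 of 6 at 1 FPKM and summed to 210.2 FPKM with BMH-21 against 190.3 FPKM in control. HLA-DRA, an antigen presentation gene, made up most of that at 200.02 FPKM with BMH-21 against 175 FPKM in control. CD68 was at 9.96 FPKM with BMH-21 against 14.7 FPKM in control, and the pan-leukocyte gene PTPRC was at 0.0116 FPKM or less in both. Fibroblast markers summed to 9.34 FPKM with BMH-21 against 4.71 FPKM in control, with 3 of 6 at 1 FPKM. The matrix proteoglycans LUM (5.23 FPKM with BMH-21 and 2.34 FPKM in control) and DCN (2.50 FPKM with BMH-21 and 0.419 FPKM in control) were higher with separate intervals, and PDGFRA was at 1.02 FPKM with BMH-21 against 1.22 FPKM in control. The collagen genes COL1A1, COL1A2 and COL3A1 were each at 0.598 FPKM or less in both groups. The part of these markers in the differences below was not tested. In bulk RNA, fewer cells of a type and less RNA per cell cannot be told apart.

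MITF recognises the M-box, an E-box variant found in promoters of pigment genes. RefSeq promoter windows on GRCh38.p14, from 250 bases before to 50 after the transcription start, were matched for 24 of the 32 members. The letters TCATGTG, the M-box core, stood on either strand in the windows of 6 of the 24 (25.0%), against 981 of 27305 genes with a window (3.59%) and 2.92% of all windows. The 6 genes were TYR, TYRP1, DCT, SLC24A5, GPR143 and GPNMB. The motif was already known from promoters of pigment genes, so its higher share among the members is no independent result. A match describes the letters in the window and is no evidence of binding, and windows without a match may hold other forms of the site. The whole windows of TYR and GPNMB are shown because these genes lay at opposite ends of the level scale with the same core in place, and for the other 4 genes the core or cores are shown with 20 bases on either side. Sequences run 5′ to 3′ on the gene's strand, and capitals mark TCATGTG or its reverse complement CACATGA.
TYR, chr11:89177625-89177924, + strand: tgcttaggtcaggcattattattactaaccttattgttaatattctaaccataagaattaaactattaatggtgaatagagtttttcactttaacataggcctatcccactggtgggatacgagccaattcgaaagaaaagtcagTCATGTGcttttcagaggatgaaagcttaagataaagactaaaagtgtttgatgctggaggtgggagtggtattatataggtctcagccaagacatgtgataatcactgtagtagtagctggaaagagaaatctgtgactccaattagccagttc
GPNMB, chr7:23246525-23246824, + strand: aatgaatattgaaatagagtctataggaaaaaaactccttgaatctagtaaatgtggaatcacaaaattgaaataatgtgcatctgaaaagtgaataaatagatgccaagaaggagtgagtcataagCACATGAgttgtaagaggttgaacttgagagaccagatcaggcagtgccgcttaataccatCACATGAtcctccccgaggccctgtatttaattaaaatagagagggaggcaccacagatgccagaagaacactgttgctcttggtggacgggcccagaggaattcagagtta
TYRP1, chr9:12693220-12693266, + strand: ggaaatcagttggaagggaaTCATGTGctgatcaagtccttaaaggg
DCT, chr13:94479791-94479917, - strand: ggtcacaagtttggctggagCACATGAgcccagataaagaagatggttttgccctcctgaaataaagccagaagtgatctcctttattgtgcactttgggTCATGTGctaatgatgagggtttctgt
SLC24A5, chr15:48120955-48121001, + strand: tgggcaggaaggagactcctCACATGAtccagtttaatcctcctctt
GPR143, chrX:9765854-9765928, - strand: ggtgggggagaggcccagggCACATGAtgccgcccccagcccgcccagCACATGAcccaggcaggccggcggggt
The core began at position -105 from the start in TYR and at -145 in TYRP1. DCT had cores at -215 and -135, GPNMB at -123 and -62, GPR143 at -61 and -33, and SLC24A5 at -15. Of these 6 genes, 5 stayed under 1 FPKM in both groups. GPNMB, a glycoprotein related to PMEL, was the exception, at 17.6 FPKM with BMH-21 (bounds 14.3 to 20.9) against 16.9 FPKM in control (bounds 13.7 to 20.1). None of the 6 had separate intervals. RAB38 and S100B had no matched window, so EDNRB was the only member with separate intervals that could be searched.

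The channels and transporters of the melanosome membrane were low as well, apart from the copper pump. ATP7A, which supplies copper to tyrosinase and serves copper balance in most cells, was at 2.99 FPKM with BMH-21 (bounds 2.39 to 3.58) against 3.06 FPKM in control (bounds 2.45 to 3.67). OCA2, an anion channel that raises melanosome pH, was at 0.283 FPKM with BMH-21 (bounds 0.163 to 0.402) against 0.167 FPKM in control (bounds 0.0789 to 0.256). GPR143, a receptor that controls melanosome size, was at 0.375 FPKM with BMH-21 against 0.351 FPKM in control. SLC45A2, a transporter that also acts on melanosome pH, was at 0.107 FPKM with BMH-21 against 0.0774 FPKM in control. The ion exchanger SLC24A5 was at 0.0725 FPKM with BMH-21 against 0.0464 FPKM in control, with lower bounds of 0 in both. The cation channel TRPM1 was listed at 0 with BMH-21 and at 0.0103 FPKM in control. All 6 overlapped. On the GENCODE 29 annotation, 29.4% of the exonic length of SLC24A5 is shared with MYEF2 on the opposite strand, and no source used here says whether counting used strand.

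Among the surface receptors, EDNRB was lower with BMH-21. EDNRB, the receptor through which endothelins act on melanoblasts and melanocytes, was at 7.27 FPKM with BMH-21 (bounds 5.75 to 8.78) against 11.4 FPKM in control (bounds 9.11 to 13.6). Its intervals were 0.331 FPKM apart and its estimate was 1.56-fold lower. The log2 difference, taken on FPKM + 1, was -0.58 ± 0.38, where the second value is the half-width combined from both groups' bounds. It stood 318th from the lowest of 12738 genes. MC1R, the melanocortin receptor that raises cAMP and eumelanin synthesis, was at 5.50 FPKM with BMH-21 (bounds 4.37 to 6.63) against 6.84 FPKM in control (bounds 5.46 to 8.23). Its difference of -0.27 ± 0.36 had the same sign with overlapping intervals. MC1R shares 24.7% of its exonic length with a same-strand readthrough gene on GENCODE 29, so its level is uncertain. KIT, the stem cell factor receptor on which melanoblasts depend, was near 0, at 0.0102 FPKM with BMH-21 against 0.0129 FPKM in control.

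The transport genes went in different directions. RAB38, a Rab GTPase that brings tyrosinase-bearing vesicles to the melanosome, was at 22.5 FPKM with BMH-21 (bounds 18.1 to 26.8) against 13.3 FPKM in control (bounds 10.6 to 16.0). Its intervals were 2.15 FPKM apart, the widest gap among the 3 separate members. The estimate was 1.69-fold higher, with a log2 difference of 0.72 ± 0.39 that stood 250th from the highest of 12738 genes. RAB32, its close relative with an overlapping role, was at 10.5 FPKM with BMH-21 (bounds 8.22 to 12.7) against 10.3 FPKM in control (bounds 8.07 to 12.5). The level of RAB38 was thus 2.14 times that of RAB32 with BMH-21 and 1.29 times in control. In control the bounds of the 2 genes overlapped, and with BMH-21 they did not.

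RAB27A, MLPH and MYO5A form the tether that links the ripe melanosome to actin. RAB27A, the GTPase on the organelle, was at 1.62 FPKM with BMH-21 (bounds 1.24 to 2.0) against 2.25 FPKM in control (bounds 1.74 to 2.76). Its intervals overlapped, although its log2 difference of -0.31 ± 0.31 lay just beyond the half-width. A difference beyond the half-width held for 3 measured members on the lower side, RAB27A with S100B and EDNRB, and for RAB38 on the higher side, against 7.07% and 7.19% of all genes. MLPH, the linker between the GTPase and the motor, was at 0.430 FPKM with BMH-21 (bounds 0.293 to 0.566) against 0.759 FPKM in control (bounds 0.553 to 0.965). It stayed under 1 FPKM in both, and its bounds met by a narrow margin, although its log2 difference of -0.30 ± 0.22 lay beyond the half-width. MYO5A, the myosin motor, was at 9.02 FPKM with BMH-21 (bounds 7.37 to 10.7) against 7.67 FPKM in control (bounds 6.26 to 9.08). The estimates of the organelle GTPase and linker were thus below control and that of the motor above it, with all 3 intervals overlapping.

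**Figure D2:**
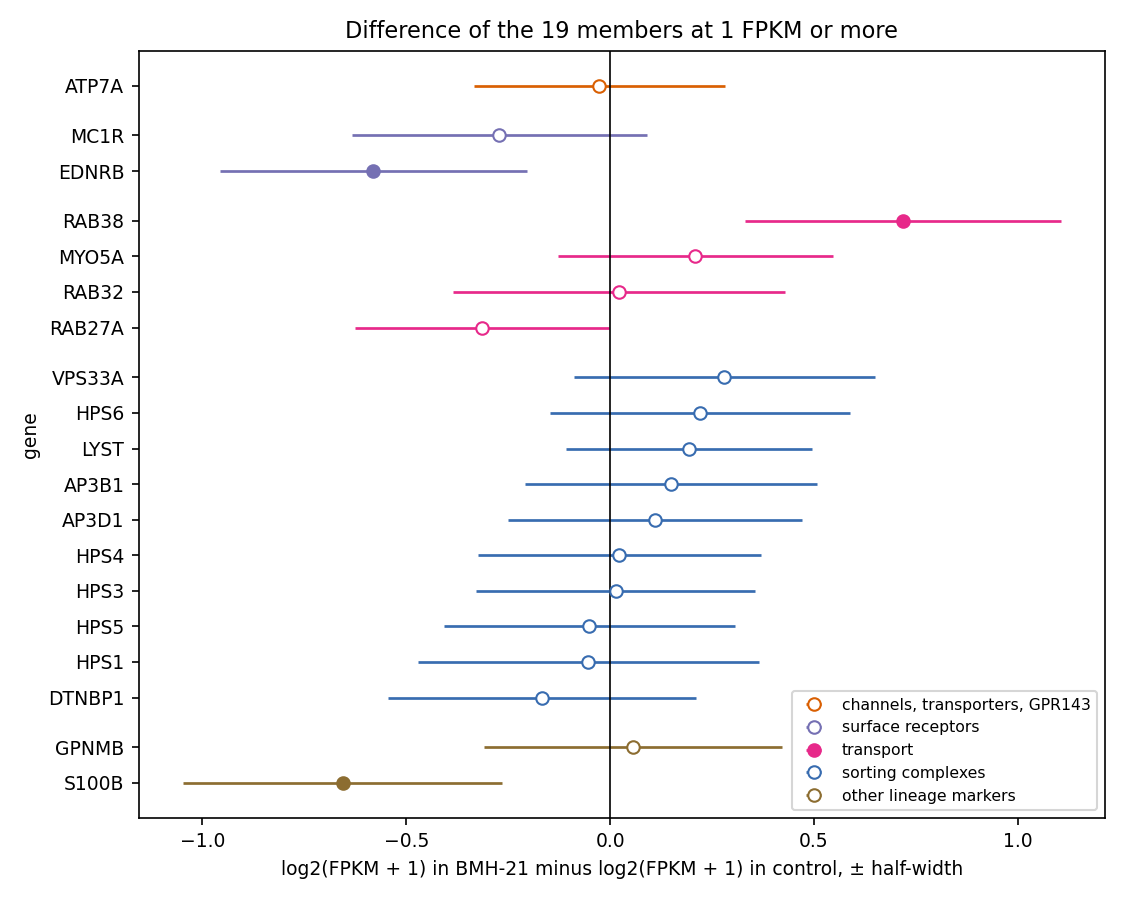
Difference of log2(FPKM + 1), BMH-21 minus control, with the half-width combined from the authors' bounds, for the 19 members at 1 FPKM or more, coloured by role. Filled points have separate intervals: EDNRB and S100B to the left of 0 and RAB38 to the right. The 10 sorting-complex genes lie between -0.17 and 0.28 and are all open.

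None of the 10 sorting-complex genes had separate intervals, as was the case for 11882 of all 12738 genes. Their median log2 difference was 0.07, with a range of -0.17 to 0.28, against a median of 0.03 over all 12738 genes. The large AP-3 subunits were the most abundant members of the list. AP3D1, the delta subunit of this adaptor, was at 33.4 FPKM with BMH-21 (bounds 27.4 to 39.4) against 30.9 FPKM in control (bounds 25.3 to 36.5). AP3B1, the beta subunit, was at 29.4 FPKM with BMH-21 (bounds 24.1 to 34.7) against 26.4 FPKM in control (bounds 21.6 to 31.2). The estimates of both were above control by a similar amount, and AP3D1 exceeded AP3B1 1.14 times with BMH-21 and 1.17 times in control.

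Among the Hermansky-Pudlak subunits, HPS1 differed from HPS4, and HPS3 from HPS5 and HPS6, more than any of these genes differed between groups. The bounds of HPS5 and HPS6 overlapped in both groups. In BLOC-3, the exchange factor that activates RAB32 and RAB38, HPS1 was at 12.3 FPKM with BMH-21 (bounds 9.66 to 15.0) against 12.8 FPKM in control (bounds 10.02 to 15.7). Its partner HPS4 was at 5.45 FPKM with BMH-21 (bounds 4.37 to 6.53) against 5.35 FPKM in control (bounds 4.28 to 6.42). HPS1 was therefore 2.26 times as abundant per length as HPS4 with BMH-21 and 2.40 times in control, with bounds that did not meet in either group. In BLOC-2, which tethers cargo carriers to the melanosome, HPS6 was at 17.3 FPKM with BMH-21 (bounds 14.1 to 20.5) against 14.7 FPKM in control (bounds 11.9 to 17.6). HPS5 was at 12.3 FPKM with BMH-21 (bounds 9.98 to 14.6) against 12.7 FPKM in control (bounds 10.4 to 15.1), and HPS3 at 3.43 FPKM with BMH-21 (bounds 2.70 to 4.17) against 3.39 FPKM in control (bounds 2.66 to 4.12). HPS3 was the low subunit in both groups, exceeded 5.04 times by HPS6 with BMH-21 and 4.34 times in control. HPS3 shares 26.4% of its exonic length with CP on the opposite strand.

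The remaining sorting genes overlapped too. DTNBP1, the dysbindin subunit of BLOC-1, was at 2.16 FPKM with BMH-21 (bounds 1.60 to 2.73) against 2.55 FPKM in control (bounds 1.89 to 3.21), the lowest level of the 10. VPS33A, a membrane fusion factor of the HOPS and CORVET complexes, was at 18.6 FPKM with BMH-21 (bounds 15.1 to 22.1) against 15.2 FPKM in control (bounds 12.3 to 18.1), and 29.8% of its exonic length lies in a same-strand readthrough gene. It had the largest difference of the 10, 0.28 ± 0.37, which did not pass its half-width. LYST, the lysosomal trafficking regulator mutated in Chediak-Higashi syndrome, was at 3.66 FPKM with BMH-21 (bounds 2.97 to 4.36) against 3.08 FPKM in control (bounds 2.49 to 3.67).

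Of the lineage markers outside these groups, S100B was lower with BMH-21. S100B, a calcium-binding protein used as a melanoma marker, was at 17.8 FPKM with BMH-21 (bounds 14.2 to 21.5) against 28.7 FPKM in control (bounds 23.1 to 34.3). Its intervals were 1.66 FPKM apart, its estimate was 1.61-fold lower and its log2 difference was -0.66 ± 0.39, 191st from the lowest of 12738 genes. CAPN3, a calpain with a melanocyte transcript form, was at 0.262 FPKM with BMH-21 against 0.245 FPKM in control. It shares 77.5% of its exonic length with another same-strand gene on GENCODE 29, and GPNMB was described above.

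By level, AP3D1 stood first in both groups. S100B ranked 5 of 32 with BMH-21 and 2 of 32 in control, and RAB38 ranked 3 with BMH-21 and 7 in control. Neighbours in that order mostly did not differ beyond their bounds: with BMH-21 the bounds of RAB38, VPS33A, S100B and GPNMB all overlapped. The 19 measured members had a median difference of 0.02, against 0.03 over all 12738 genes, and 11 of the 19 (57.9%) had a positive difference, against 55.2% of all. Under each of 3 other scalings the median of the 19 was below 0, as was that of all genes. Median scaling sets the median of all genes near 0 by design.

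**Figure D3:**
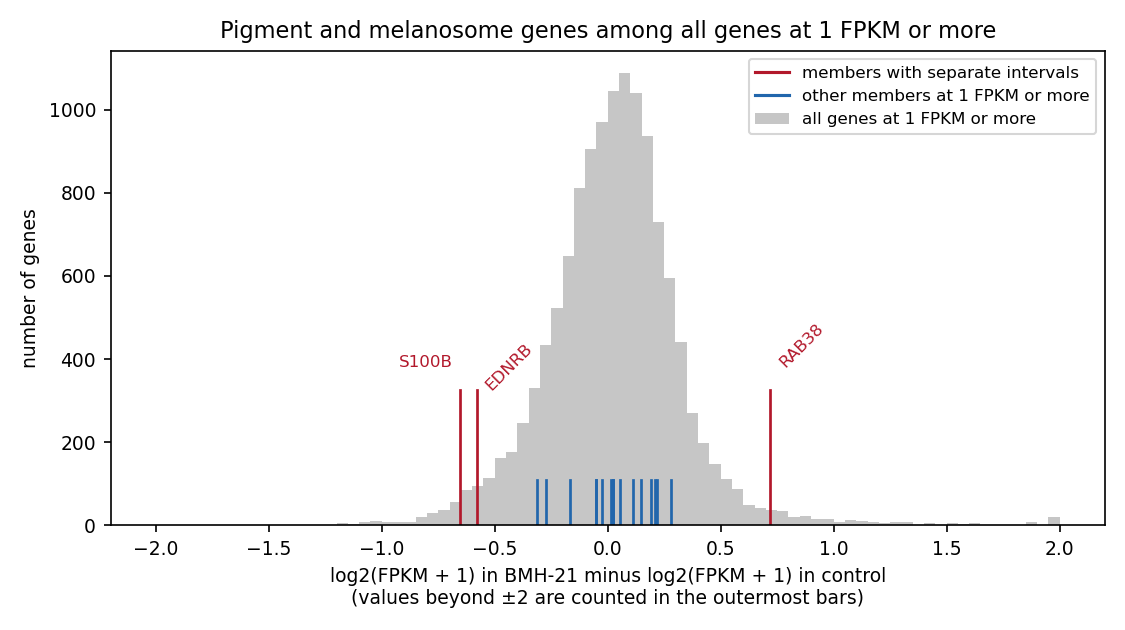
Number of genes by difference of log2(FPKM + 1), BMH-21 minus control, over 12738 genes at 1 FPKM or more (grey bars), with the 19 measured members as lines. Members with separate intervals (red, taller) are S100B and EDNRB below 0 and RAB38 above 0, and the other 16 (blue) lie in the central part of the distribution.

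A wider list of 44 melanosome genes covered the other subunits of the same complexes and further cargo and transport genes. Of these, 41 reached 1 FPKM, 2 were higher with separate intervals (4.88%), 0 were lower and 39 overlapped. Over all 12738 genes, 3.58% were higher and 3.14% lower, and the list gives counts of only 2 and 0 genes. The median difference of the 41 was 0.04, against 0.03 over all 12738 genes. BLOC1S2, a subunit that BLOC-1 shares with the lysosome-positioning complex BORC, was at 38.7 FPKM with BMH-21 (bounds 31.7 to 45.8) against 17.7 FPKM in control (bounds 14.3 to 21.1). It was 2.18-fold higher with a difference of 1.08 ± 0.37, 96th from the highest of 12738 genes, a larger difference than that of any of the 19 measured members. The other 6 listed BLOC-1 genes overlapped, with differences between -0.20 and 0.06. Among them BLOC1S1, the other subunit shared with BORC alongside SNAPIN, was at 67.9 FPKM with BMH-21 against 67.3 FPKM in control, and SNAPIN at 31.6 FPKM with BMH-21 against 36.5 FPKM in control. The interval of BLOC1S5 was too wide to be read, with bounds of 1.25 to 10.8 FPKM with BMH-21 against 1.29 to 10.5 FPKM in control.

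OSTM1, the beta subunit of the lysosomal chloride transporter CLCN7, was at 13.0 FPKM with BMH-21 (bounds 10.6 to 15.3) against 8.52 FPKM in control (bounds 6.87 to 10.2). It was 1.52-fold higher, with intervals only 0.409 FPKM apart, and they met when the group sums were made equal over all rows but short RNAs. CLCN7 itself was at 16.8 FPKM with BMH-21 (bounds 13.8 to 19.9) against 17.9 FPKM in control (bounds 14.5 to 21.3). VPS41, a HOPS subunit, had the next largest positive difference, 0.35 ± 0.35, at 15.6 FPKM with BMH-21 against 12.0 FPKM in control with overlapping intervals. At the other end were APOE (8.22 FPKM with BMH-21 and 10.4 FPKM in control), which shapes PMEL fibrils, the AP-3 subunit AP3S2 (9.32 FPKM with BMH-21 and 11.7 FPKM in control) and the VPS33B partner VIPAS39 (5.85 FPKM with BMH-21 and 7.30 FPKM in control), all overlapping. The most abundant gene was CD63, a tetraspanin that sorts PMEL, at 384 FPKM with BMH-21 against 374 FPKM in control.

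**Figure D4:**
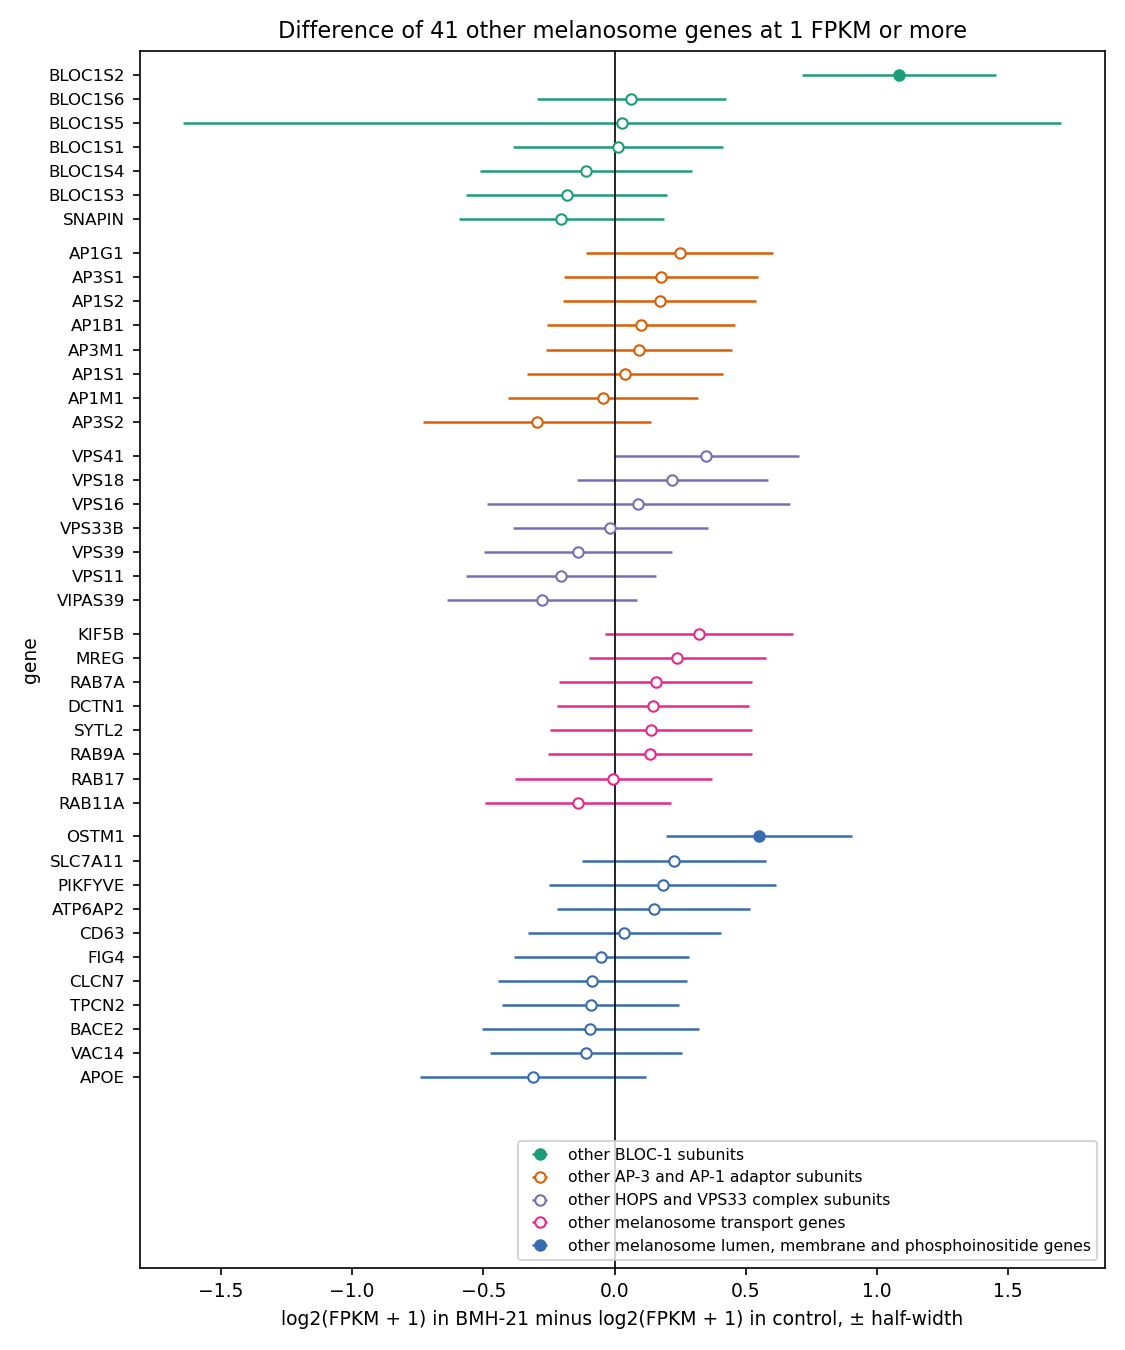
Difference of log2(FPKM + 1), BMH-21 minus control, with its combined half-width, for 41 other melanosome genes at 1 FPKM or more, coloured by complex or role. BLOC1S2 and OSTM1 (filled) are higher with separate intervals, every other point is open, and BLOC1S5 has by far the widest bar.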

How the data were processed

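Total RNA was isolated with Trizol and sequenced from stranded TruSeq libraries, per the labels' protocols. The authors deposited 1 table of FPKM values, and TopHat2, Cuffdiff 2.0 and GRCh37 are named, without roles or settings, per the submitters' processing notes. The 6 samples were grouped by their treatment labels. The first column of each group was read as the estimate and the others as bounds, since it was their midpoint within a relative tolerance of 0.0001 in 15872 of 15881 BMH-21 rows and 16203 of 16213 control rows with values above 0. The written design makes no test in that case. FPKM holds no read totals, so counting precision is unknown.

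Differences were computed in Python 3.11.15 (pandas 2.3.3) on log2(FPKM + 1), which understates changes of low genes. Measured genes are those that reached 1 FPKM in BMH-21, control or both. Of 12749 such genes outside 325 short RNA rows, 12738 had estimates inside their bounds in both groups. The code for the calls was run on simulated data with the same relative bound for every gene. The deposited bounds vary between genes, so that run gives no error rate for the calls here. Every member is named. From the wider list, genes with separate intervals and the 3 with the largest difference in each direction are named, and from the markers of other cells those at 1 FPKM or more. BLOC1S1, BLOC1S5, SNAPIN, CLCN7, CD63 and the markers under 1 FPKM that are given by name were chosen after their values were seen. Members and lists were chosen with earlier results of these data known. Exon overlaps come from GENCODE 29 and promoter sequences from RefSeq, both on GRCh38, and no coordinates were carried over to the deposited table. Alternatives were other scalings, pseudocounts, filters and call rules.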

Additional observations from a re-analysis of the deposited data

How the results depend on the processing

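S100B and EDNRB were lower and RAB38 was higher with separate intervals under all 3 other scalings. All 3 scalings moved these differences downward. With equal sums without short RNA rows they were -0.7162 for S100B, -0.6367 for EDNRB and 0.6571 for RAB38. The scalings thus put only the call of RAB38 at risk and are no check of the 2 lower calls. The other filters, at least 5 FPKM and none, could not change any of the 3 calls, since all 3 genes were above 5 FPKM in both groups. Each also passed both other call rules, which reuse the same values and add no independent support. Calling a difference beyond its half-width added RAB27A, giving 3 lower members, and over all genes it called 901 lower and 916 higher, against 400 and 456 with separate intervals. A ratio of at least 1.5 called 615 lower and 638 higher. The median difference of measured members, 0.02 as reported, was -0.0123 under median scaling, -0.0023 under quantile normalization and -0.0359 with equal sums without short RNA rows. That of the wider list, 0.04 as reported, was 0.0021 under median scaling and -0.0076 under quantile normalization. With equal sums without short RNA rows, that of the wider list was -0.0237. The median over all genes, 0.0338 as reported, was -0.0004 under median scaling, which sets it near 0 by design. It was -0.0159 under quantile normalization and -0.0244 with equal sums. GPNMB, HPS3, HPS4 and RAB32, whose differences were near 0, each changed sign under at least 1 of these scalings. With equal sums without short RNA rows, 1 wider gene was higher with separate intervals, BLOC1S2, and 40.4% of all calls were higher, against 53.3% as reported. The cause of these changes was not tested. With a pseudocount of 0.1, the differences of 7 members shifted from the reported ones by at least the reported half-width. All 7 were under 1 FPKM in both groups, and a pseudocount of 0.5 shifted none that far. Leaving out each replicate was not run and no replicate block could be fitted. No paired analysis was possible because the columns hold no libraries to pair. Among genes under 1 FPKM, the 2.03-fold lower TYRP1 estimate still had overlapping bounds.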

Other observations

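The canonical E-box CACGTG, a match to which is never also a match to the M-box core, was found on either strand in the promoter windows of 4 of the 24 matched members (16.7%), against 2396 of 27305 genes (8.77%). The 4 genes were MLPH, HPS3, HPS5 and ATP7A, of which none had separate intervals and only MLPH stayed under 1 FPKM. RAB38 and S100B had no window to search. In the wider melanosome list it was found in 10 of 37 matched genes (27.0%). The M-box core TCATGTG was found in 4 of those 37 (10.8%), namely CD63, RAB17, VAC14 and BLOC1S3. All 4 were at 1 FPKM or more in both groups, as were most genes of that list (41 of 44 reached 1 FPKM in at least 1 group), from 2.46 FPKM with BMH-21 and 2.92 FPKM in control for BLOC1S3 to 384 FPKM with BMH-21 and 374 FPKM in control for CD63. These shares are descriptions of letters in 300-base windows and were not tested.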
